A study of Mus musculus with 6 samples.

Results

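Phaeochromocytoma is a tumour of the adrenaline-producing chromaffin cells of the adrenal medulla, and it is often inherited through loss of 1 gene of a small set. The 10 mouse genes described here, Tmem127, Nf1, Vhl, Max, Sdha, Sdhb, Sdhc, Sdhd, Sdhaf2 and Fh1, are susceptibility genes other than Ret. They were listed by symbol and not by a measured value, although earlier results of these data were known when the list was made. They are 10 of the 30406 genes listed in all libraries. Tmem127 is a transmembrane protein of endosomes and lysosomes that restrains mTORC1 signalling, and Nf1 is neurofibromin, which switches RAS off by speeding its GTP hydrolysis. Vhl is the part of a ubiquitin ligase that recognises hydroxylated HIF alpha subunits, and Max is the DNA-binding partner of MYC. Sdha, Sdhb, Sdhc and Sdhd are the subunits of succinate dehydrogenase, an enzyme of the tricarboxylic acid (TCA) cycle that is also complex II of the respiratory chain. Sdhaf2 helps to attach the FAD cofactor to Sdha, and Fh1 is fumarate hydratase, which takes the next step of the cycle. Human tumours that lack the last 6 build up succinate or fumarate, which blocks the hydroxylases that mark HIF for Vhl.

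The values are unique molecular identifiers (UMIs, each standing for 1 captured RNA molecule) per gene and nucleus, from droplet 3' libraries of DAPI-sorted adrenal nuclei. The labels give 2 libraries from Tmem127 knockout (KO) mice and 3 from wild-type (WT) mice. All were C57BL/6 J females aged 10 to 11 months, a library held 1 pair of whole adrenals, and no other allele or treatment is named. The deleted part of Tmem127 and the cells it is deleted in are not given in the sources used here. A further library has a title that reads WT and a genotype field that reads KO, so it has no group and its values are given apart. The labels do not say whether same-group libraries share a litter or a day, and p-values measure only the spread between these libraries.

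After filtering, 21035 nuclei remained, between 2802 and 4476 per library, from files of 4825169 to 43377724 UMIs. KO replicate 2 was the shallowest library and WT replicate 1 the deepest, with medians of 1289 and 7675 UMIs per barcode. Library pairs shared at most 0.312% of the barcodes of the smaller one. Levels are UMIs per 1000000 UMIs of all genes (CPM) in the summed nuclei of a class in 1 library, given as mean ± SD over the 5 grouped libraries. Levels are compared between classes and not between genes, because no value per length can be had from 3' counts. The nuclei were clustered without the 10 genes, and 9 named classes and 4 numbered clusters held enough nuclei in every library. A class is called "-like" since its name rests on marker genes alone. Chromaffin-like nuclei held 11330 ± 831 CPM of the 15 chromaffin markers (Th, Dbh, Chga and Pnmt among them), against 180.2 ± 71.0 CPM in zona fasciculata-like nuclei.

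The library without a group stood apart in Sdhb. Over all its nuclei Sdhb was at 27.2 CPM, while the 5 grouped libraries lay between 39.8 and 52.6 CPM. Of 7258 genes with a mean of at least 20 CPM, 0.937% were as low in that library relative to the lowest of the others. In zona fasciculata-like nuclei its Sdhb level was 27.2 CPM against 54.1 to 68.6 CPM elsewhere. Vhl, Max and Sdhc were also below the other 5 over all nuclei, by less, and Fh1 was above them. This library enters no test except where stated.

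Each class was compared with the mean of the other 8 named classes, with the library as a block, in 11653 genes. A gene passed where edgeR's quasi-likelihood test gave a Benjamini-Hochberg adjusted p under 0.05, and 32 of the 90 member and class pairs did. Classes differ in a large share of all genes, so each count is set beside that share. In adipocyte-like nuclei 6 members were higher and 1 was lower, where 24.9% and 24.3% of all genes were (49.2% in either direction). Macrophage-like nuclei had 5 higher and 0 lower members, against 26.2% and 23.7% (49.9% in either direction). Endothelial-like nuclei had 2 higher and 0 lower, against 27.6% and 20.4% (48% in either direction). T or NK cell-like nuclei had 0 higher and 3 lower, against 14.1% and 14.9% (29% in either direction). In capsule or fibroblast-like nuclei 1 was higher and 2 were lower, against 26.4% and 13.7% (40% in either direction). In Schwann or sustentacular-like nuclei 1 was higher and 4 were lower, against 15.1% and 13% (28.1% in either direction). Chromaffin-like nuclei had 1 higher and 2 lower, against 29.4% and 22.8% (52.2% in either direction). Zona fasciculata-like nuclei had 1 higher and 0 lower, against 32.6% and 19.6% (52.1% in either direction), and zona glomerulosa-like nuclei had 2 higher and 1 lower, against 30.8% and 19.6% (50.3% in either direction). Without the TMM composition factor the split over all genes was 24% higher and 31.3% lower in chromaffin-like, 21.7% and 8% in T or NK cell-like, and 24.7% and 24.1% in zona glomerulosa-like nuclei.

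**Figure D1:**
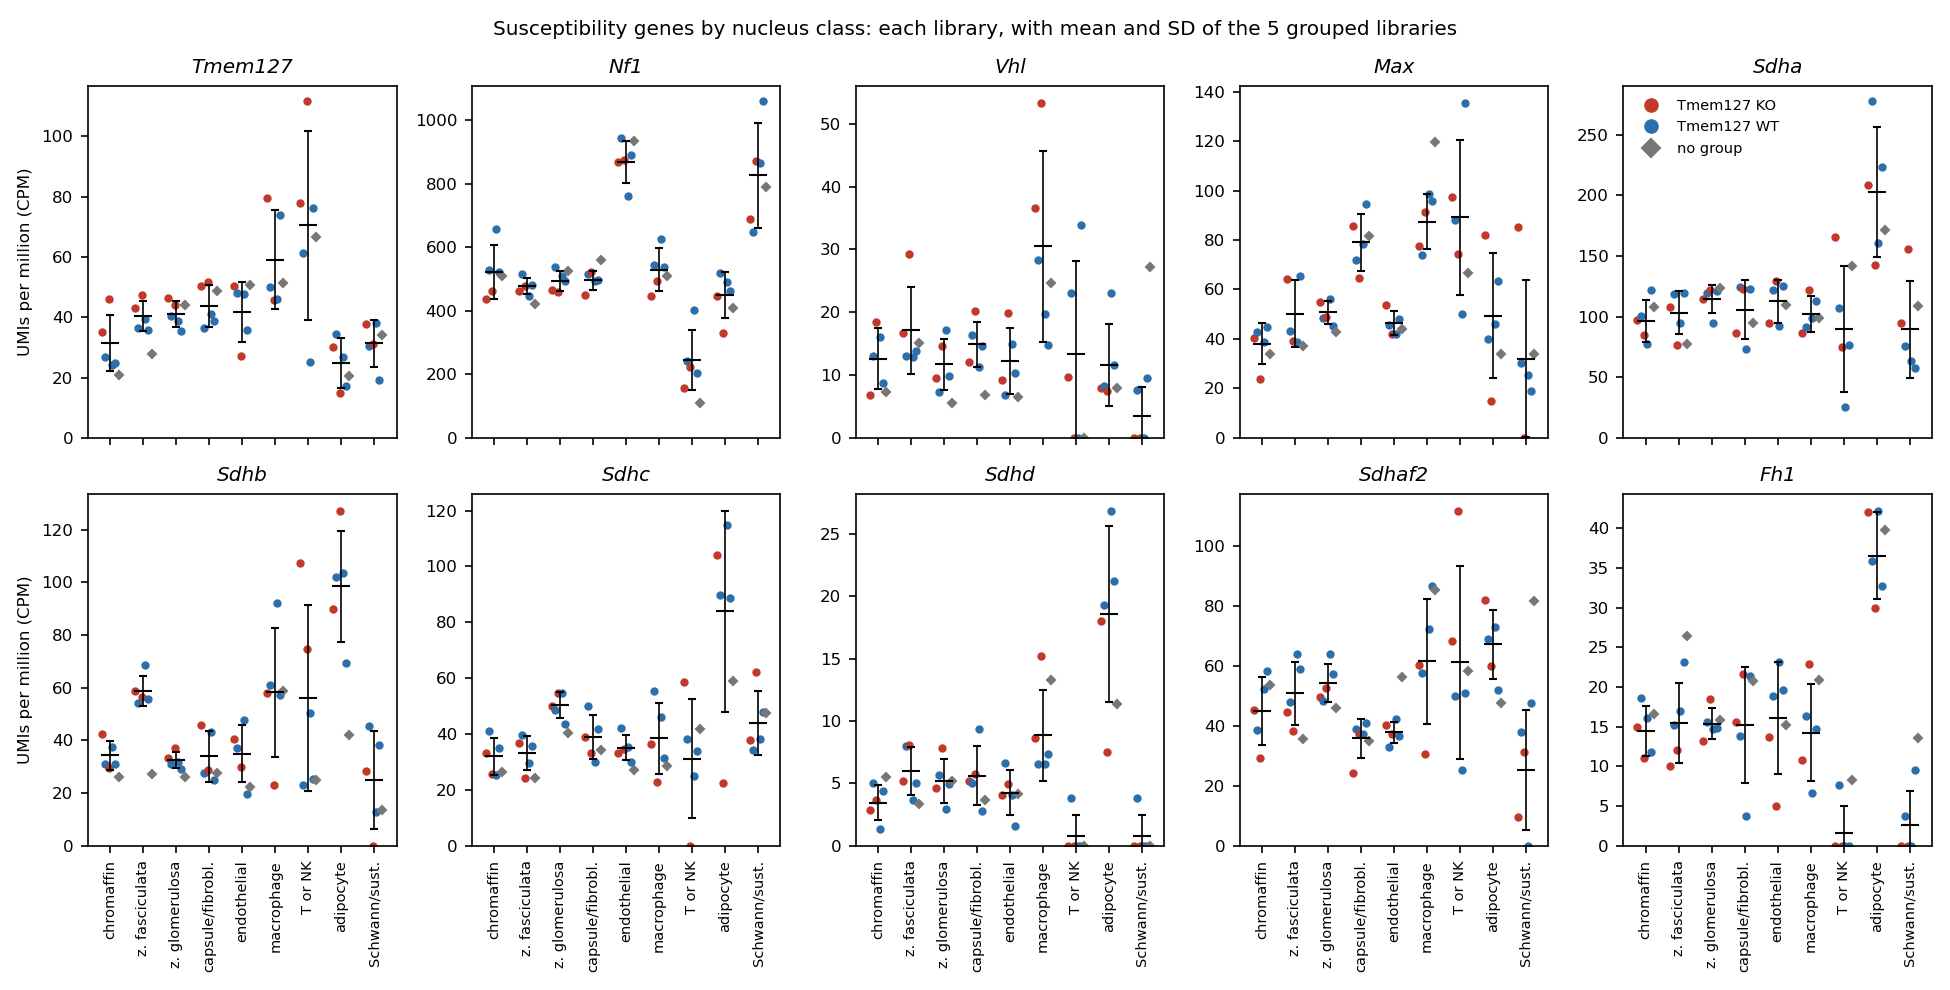
Level of each of the 10 genes (y axis, CPM) in 9 nucleus classes (x axis), with 1 point per library and a bar for the mean and SD of the 5 grouped libraries. The 4 Sdh genes, Sdhaf2 and Fh1 have their highest mean in adipocyte-like nuclei, while Nf1 is highest in endothelial-like and lowest in T or NK cell-like nuclei.

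Tmem127 changed by class in small steps. Its mean ran from 24.7 ± 8.33 CPM in adipocyte-like to 70.5 ± 31.4 CPM in T or NK cell-like nuclei, and all 8 steps between neighbours in that order were within the larger SD of the pair. In macrophage-like nuclei it was counted at 79.6 and 45.7 CPM in KO replicates 1 and 2 and at 50.05, 46.1 and 73.8 CPM in WT replicates 1, 2 and 3. The genotypes overlapped there, and the class was higher than the other classes by a log2 fold of 0.62 ± 0.15 (SE, edgeR adjusted p = 0.000611). Adipocyte-like nuclei were lower, by −0.58 ± 0.19 (SE, edgeR adjusted p = 0.00869). That call was lost without WT replicate 3 (edgeR adjusted p = 0.0767). Chromaffin-like nuclei had 31.4 ± 9.22 CPM, lower than the other classes by −0.34 ± 0.13 (SE, edgeR adjusted p = 0.0310). This call ended without the filter on low counts (edgeR adjusted p = 0.230) and without KO replicate 1, WT replicate 1, WT replicate 2 or WT replicate 3 (edgeR adjusted p from 0.0825 to 0.268).

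Nf1 differed between classes by more than its spread at 2 of 8 steps. In endothelial-like nuclei it was counted at 867 and 873 CPM in KO replicates 1 and 2 and at 944, 762 and 891 CPM in WT replicates 1, 2 and 3. All 5 values exceeded every chromaffin-like, zona fasciculata-like, zona glomerulosa-like, macrophage-like, capsule and adipocyte-like value, of which the highest was 659 CPM. The fold against the other classes was 0.96 ± 0.08 (SE, edgeR adjusted p = 1.62e-14). Schwann or sustentacular-like nuclei, the lineage of human neurofibromas, had 826 ± 164 CPM and were also higher, by 0.63 ± 0.10 (SE, edgeR adjusted p = 2.73e-06). T or NK cell-like nuclei were the low end, at 156 and 224 CPM in KO, and at 242, 402 and 203 CPM in WT, with a fold of −1.68 ± 0.14 (SE, edgeR adjusted p = 1.89e-14). Their highest value, WT replicate 2, was above the lowest adipocyte-like value of 329 CPM and below every value of the other 7 classes. Chromaffin-like nuclei held 522 ± 85.7 CPM, near the macrophage-like 529.8 ± 66.7 CPM, and passed as higher by 0.22 ± 0.09 (SE, edgeR adjusted p = 0.0311). That fold was 0.03 without a composition factor (edgeR adjusted p = 0.878), and it was not called without WT replicate 2 (edgeR adjusted p = 0.0735). Schwann or sustentacular-like nuclei held 3214 ± 452 CPM of capsule or fibroblast and 515 ± 161 CPM of chromaffin markers, and T or NK cell-like nuclei 2780 ± 361 CPM of macrophage and 1753 ± 845 CPM of zona fasciculata markers. The macrophage list includes Ptprc, a gene that T and NK cells use too. Of that list, Csf1r was at 1.95 CPM and Mrc1 at 20.5 CPM in T or NK cell-like nuclei. In macrophage-like nuclei they were at 292 and 822 CPM. The part of these markers in the class folds was not tested.

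Vhl and Max, the HIF recognition subunit and the MYC partner, were both higher in macrophage-like nuclei. Vhl was counted there at 36.6 and 53.3 CPM in KO replicates 1 and 2 and at 28.3, 19.7 and 14.8 CPM in WT replicates 1, 2 and 3, from 61 UMIs in all. Both KO values lay above the 3 WT values, as in 8.99% of all genes tested there, and the difference did not pass (0.91 ± 0.54, edgeR adjusted p = 0.960). Against the other classes the fold was 1.23 ± 0.27 (SE, edgeR adjusted p = 0.000114). In the other named classes the mean of Vhl lay between 11.7 ± 6.53 CPM in adipocyte-like and 17.1 ± 6.92 CPM in zona fasciculata-like nuclei, apart from Schwann or sustentacular-like nuclei with 3 UMIs. Max was counted in macrophage-like nuclei at 77.4 and 91.4 CPM in KO replicates 1 and 2 and at 74.0, 98.7 and 95.9 CPM in WT replicates 1, 2 and 3. Each value exceeded the highest zona fasciculata-like value of 65.5 CPM, and the fold was 0.56 ± 0.15 (SE, edgeR adjusted p = 0.00187). The highest class mean of Max was that of T or NK cell-like nuclei, which did not pass as higher. It was 89.2 ± 31.4 CPM, from 53 UMIs, against 87.5 ± 11.1 CPM in macrophage-like nuclei. Capsule or fibroblast-like nuclei had 79.1 ± 11.6 CPM of Max and were higher by 0.50 ± 0.13 (SE, edgeR adjusted p = 0.000946). Chromaffin-like nuclei had 38.1 ± 8.28 CPM and were lower by −0.40 ± 0.14 (SE, edgeR adjusted p = 0.0116). The chromaffin-like call was lost without the filter on low counts (edgeR adjusted p = 0.0730) and without KO replicate 1 (edgeR adjusted p = 0.219).

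The 4 subunits of succinate dehydrogenase, Sdhaf2 and Fh1 all had their highest class mean in adipocyte-like nuclei, and all 6 passed as higher there. This class held 447 nuclei, counting those of the library without a group, and carried genes of brown fat. The mean over the 5 grouped libraries was 1026 CPM for Ucp1, the uncoupling protein of heat production, and 298 CPM for Cidea. Lep, also of the adipocyte marker list, was at 65.4 ± 38.0 CPM, from 0 to 94.4 CPM. Sdha, the flavoprotein that oxidises succinate, was counted at 208 and 142 CPM in KO replicates 1 and 2 and at 277, 161 and 223 CPM in WT replicates 1, 2 and 3. The lowest of these exceeded every chromaffin-like, zona fasciculata-like, zona glomerulosa-like, capsule, endothelial-like and macrophage-like value, of which the highest was 129 CPM. It did not exceed the highest values of the sparser T or NK cell-like (165.7 CPM) and Schwann or sustentacular-like nuclei (155.5 CPM). Cluster 6 also reached above it, at 144.9 CPM in WT replicate 1. The fold against the other classes was 1.17 ± 0.11 (SE, edgeR adjusted p = 9.79e-13). Sdhb, the iron-sulphur subunit, was at 89.99 and 127 CPM in KO, and at 102, 104 and 69.3 CPM in WT, with a fold of 1.33 ± 0.16 (SE, edgeR adjusted p = 5.39e-10). Sdhc, a membrane anchor of the complex, was at 104 and 22.4 CPM in KO, and at 89.7, 115 and 88.6 CPM in WT. KO replicate 2, with 3 UMIs, was the low value, and the fold was 1.33 ± 0.15 (SE, edgeR adjusted p = 5.78e-11). Fh1 held 36.5 ± 5.48 CPM against 16.1 ± 7.06 CPM in the next named class, endothelial-like, with a fold of 1.89 ± 0.26 (SE, edgeR adjusted p = 2.86e-08). The classes averaged in that fold include T or NK cell-like and Schwann or sustentacular-like nuclei, with 2 UMIs of Fh1 each. Sdhaf2 held 67.1 ± 11.6 CPM, against 61.5 ± 20.8 CPM in macrophage-like nuclei, with a fold of 0.69 ± 0.16 (SE, edgeR adjusted p = 0.000345). For Sdhc and Sdhaf2 all 8 steps between neighbours in the order of class means were within the larger SD of the pair.

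Sdhd, the other membrane anchor, was the sparsest member and had the largest adipocyte-like fold of the 10. It was counted at 18.0 and 7.48 CPM in KO replicates 1 and 2 and at 19.3, 26.8 and 21.2 CPM in WT replicates 1, 2 and 3, which is 42 UMIs in all and 1 UMI in KO replicate 2. The other 4 values were above every value of every other named class, of which the highest was 15.2 CPM. The fold was 2.43 ± 0.31 (SE, edgeR adjusted p = 2.84e-09), and low counts removed the gene in 4 of the 14 alternatives, among them the one without WT replicate 1. T or NK cell-like and Schwann or sustentacular-like nuclei, with 1 UMI of Sdhd each, are among the classes averaged in this fold. Adipocyte-like nuclei also held 739 ± 96.8 CPM of zona fasciculata markers, against 11340 ± 2679 CPM in zona fasciculata-like nuclei. They held 3845 ± 768 CPM of the B or plasma cell list, which includes Ebf1, a gene that adipocytes use too. The part of these markers in the result was not tested.

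Promoter sequences are shown for 3 of the 6 genes that were high together in adipocyte-like nuclei, since letters near the start site are a feature that the choice of genes did not use. They are the 250 bases before and 50 after the RefSeq start on GRCm38.p6, and 9 of the 10 genes matched the table. Capitals mark matches, on either strand, to TCAAGGTCA (ERR), CCGGAAG (ETS) or CCAAT. The Sdhd window is chr9:50603800-50604099 on the minus strand, the Sdhb window chr4:140961021-140961320 on the plus strand and the Fh1 window chr1:175625586-175625885 on the minus strand.
Sdhd: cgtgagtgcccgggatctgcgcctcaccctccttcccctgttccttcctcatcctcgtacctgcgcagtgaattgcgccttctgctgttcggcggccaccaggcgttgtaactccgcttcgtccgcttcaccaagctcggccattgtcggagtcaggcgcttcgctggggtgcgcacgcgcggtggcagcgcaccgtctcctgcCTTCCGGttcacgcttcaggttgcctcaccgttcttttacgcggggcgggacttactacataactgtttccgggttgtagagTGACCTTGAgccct
Sdhb: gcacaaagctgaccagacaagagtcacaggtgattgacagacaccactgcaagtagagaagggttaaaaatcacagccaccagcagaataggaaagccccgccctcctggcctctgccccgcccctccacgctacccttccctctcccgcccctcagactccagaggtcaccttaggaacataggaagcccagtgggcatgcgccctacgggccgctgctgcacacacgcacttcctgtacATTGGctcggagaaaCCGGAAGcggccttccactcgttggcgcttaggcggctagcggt
Fh1: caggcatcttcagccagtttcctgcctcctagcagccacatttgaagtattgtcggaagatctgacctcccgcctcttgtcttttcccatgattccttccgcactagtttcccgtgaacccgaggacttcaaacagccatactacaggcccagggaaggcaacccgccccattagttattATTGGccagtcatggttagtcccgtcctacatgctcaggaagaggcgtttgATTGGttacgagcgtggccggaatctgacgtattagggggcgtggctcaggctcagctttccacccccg
The ERR letters occurred in Sdhd alone of the 9, 36 bases after the start, and in 0.423% of the 32851 RefSeq promoters. The ETS letters occurred in 5 of the 9 (Tmem127, Nf1, Sdhb, Sdhd and Sdhaf2), against 8.86% of all promoters. These letters hold a CpG (a C followed by a G). The 9 windows had 14 to 44 CpG and 54.3% to 76.7% GC, where the median of all promoters was 7 CpG and 52.7% GC. The part of base content in the motif counts was not tested. CCAAT was found in 3 (Sdha, Sdhb and Fh1), against 37.4%. CACGTG, the E-box that Max binds with MYC, was found in the Max window only, against 7.15%, and the NRF1 motif, searched by its palindromic consensus, in 0 of 9, against 0.971%. A match describes letters only, and no binding was measured.

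**Figure D2:**
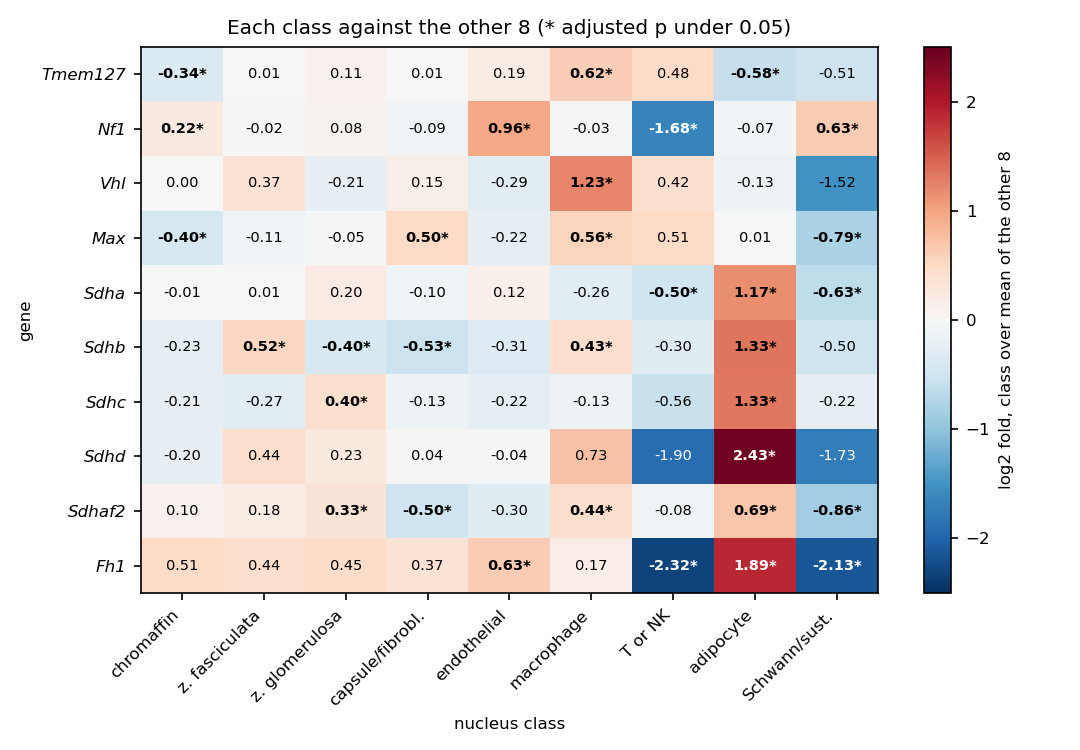
Fitted log2 fold of each gene (rows) in each class (columns) over the mean of the other 8 classes, from 5 libraries, with a star where the edgeR adjusted p was under 0.05. Starred values include Sdhd at 2.43 in adipocyte-like nuclei and Nf1 at 0.96 in endothelial-like nuclei.

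Within the steroid-producing cortex, Sdhb and Sdhc, subunits of the same enzyme, differed in opposite directions. Zona glomerulosa cells make aldosterone and zona fasciculata cells make glucocorticoid. The classes named after them were compared in a fit in which 16.9% of all genes were higher in zona glomerulosa and 16.6% lower (33.5% in either direction). The zona glomerulosa-like class joins cluster 2 (2289 nuclei of all libraries, led by Vsnl1 and Agtr1b) and cluster 3 (1855 nuclei, led by Oca2), which were not tested apart. It held 15.5 ± 5.51 CPM of Cyp11b2 and 261 ± 33.6 CPM of Cyp11b1. The zona fasciculata-like class joins cluster 1 (2400 nuclei, led by Dab1 and Abcb1b) and cluster 4 (1610 nuclei, led by Cthrc1), also not tested apart. With coarser clusters, Cthrc1 was among the leading genes of a zona glomerulosa-like cluster led by Oca2. With doublets kept, a cluster led by Cthrc1 and Oca2 had no name. Among the members 1 was higher and 1 lower. In zona glomerulosa-like nuclei Sdhb was at 33.4 and 37.1 CPM in KO replicates 1 and 2 and at 31.2, 31.8 and 29.2 CPM in WT replicates 1, 2 and 3. In zona fasciculata-like nuclei it was at 58.7 and 56.4 CPM in KO, and at 54.1, 68.6 and 55.6 CPM in WT. The classes did not overlap, Sdhb was lower in zona glomerulosa in 5 of 5 libraries, and the fold was −0.81 ± 0.15 (SE, edgeR adjusted p = 1.88e-05). Sdhc was at 50.1 and 54.6 CPM in KO, and at 48.5, 54.7 and 43.5 CPM in WT in zona glomerulosa-like nuclei. In zona fasciculata-like nuclei it was at 36.6 and 24.2 CPM in KO, and at 39.5, 29.8 and 35.9 CPM in WT. Again the classes did not overlap, Sdhc was higher in zona glomerulosa in 5 of 5 libraries, and the fold was 0.60 ± 0.14 (SE, edgeR adjusted p = 0.000468). Both calls held in each of the 14 alternatives run. Sdha, the catalytic subunit, was at 114 ± 11.6 CPM and 103 ± 17.9 CPM in the zona glomerulosa-like and zona fasciculata-like nuclei and did not pass (0.17 ± 0.12, edgeR adjusted p = 0.315). The folds of Sdhd (−0.18 ± 0.25), Sdhaf2 (0.13 ± 0.14) and Fh1 (0.01 ± 0.19) did not pass either.

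Cluster 6 was looked at after these values were seen and was not tested. It is led by Cyp2f2 and Akr1d1 of the X-zone list and passed 9 zona fasciculata markers, so it has no name. Sdhb there was at 89.9 and 66.2 CPM in KO, and at 90.5, 87.3 and 61.8 CPM in WT, above zona fasciculata-like nuclei in 5 of 5 libraries. Sdhc was at 25.2 and 17.7 CPM in KO, and at 35.5, 26.2 and 33.7 CPM in WT, below zona fasciculata-like nuclei in 5 of 5 libraries. The library without a group had the same order for Sdhc, but its Sdhb was nearly level, at 26.0 CPM in zona glomerulosa-like nuclei, 27.2 CPM in zona fasciculata-like nuclei and 26.8 CPM in cluster 6. Zona glomerulosa-like nuclei held 2823 ± 188 CPM of zona fasciculata markers, and zona fasciculata-like nuclei 4114 ± 841 CPM of zona glomerulosa markers. Star and Cyp11a1 are on both lists, so these sums do not measure mixing of the zones. Agtr1b, on the zona glomerulosa list alone, was at 10.2 CPM in zona fasciculata-like and 719 CPM in zona glomerulosa-like nuclei. Cyp11b1, on the zona fasciculata list alone, was at 1384 and 261 CPM in the same order.

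**Figure D3:**
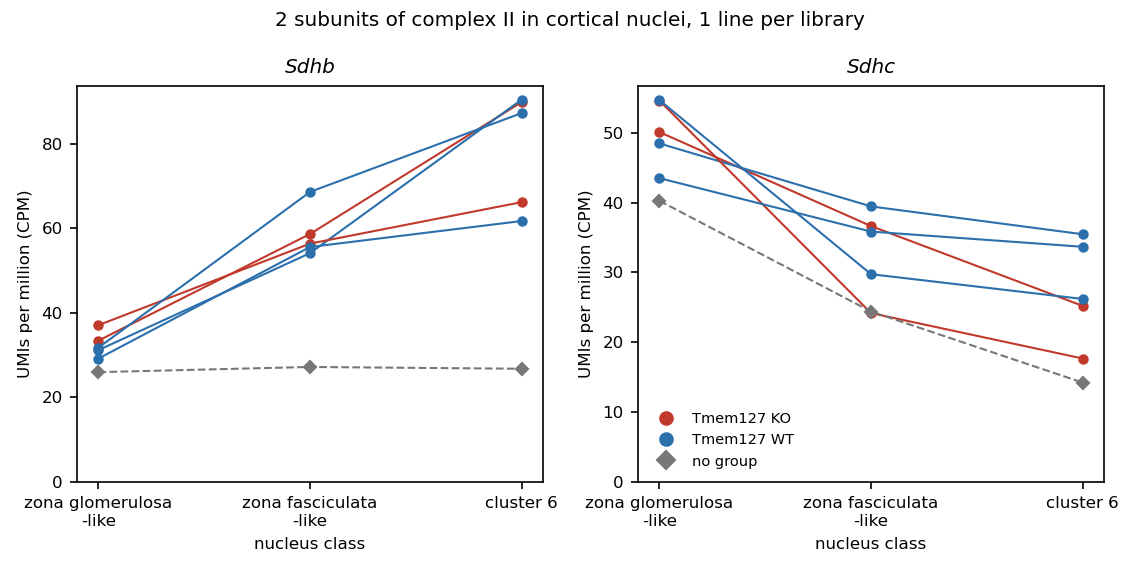
Sdhb and Sdhc levels (y axis, CPM) in zona glomerulosa-like nuclei, zona fasciculata-like nuclei and cluster 6 (x axis), with 1 line per library, dashed for the one without a group. In the 5 grouped libraries Sdhb is lower and Sdhc higher in zona glomerulosa-like than in zona fasciculata-like nuclei, while the library without a group is nearly level for Sdhb.

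Against the other 8 classes, Sdhb was higher in zona fasciculata-like nuclei by 0.52 ± 0.12 (SE, edgeR adjusted p = 0.000339) and lower in zona glomerulosa-like nuclei by −0.40 ± 0.13 (SE, edgeR adjusted p = 0.0111). The second call was lost without the filter on low counts (edgeR adjusted p = 0.124) and without KO replicate 1, WT replicate 1 or WT replicate 2 (edgeR adjusted p = 0.114, 0.0825 and 0.0640). Sdhc was higher in zona glomerulosa-like nuclei by 0.40 ± 0.12 (SE, edgeR adjusted p = 0.00290), a call lost without a composition factor (edgeR adjusted p = 0.0610). Sdhaf2 was higher there by 0.33 ± 0.12 (SE, edgeR adjusted p = 0.0167). It did not pass in DESeq2 (DESeq2 adjusted p = 0.0838), with its size factors, without a composition factor, with the sixth library included, or without WT replicate 2 (edgeR adjusted p = 0.0534).

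Chromaffin-like nuclei, the cells of origin of the tumour, had no member at its highest class mean. Against zona fasciculata-like nuclei, where 26.8% of all genes were higher and 28.6% lower (55.4% in either direction), 0 members were higher and 1 was lower. Sdhb was counted in chromaffin-like nuclei at 42.5 and 29.4 CPM in KO replicates 1 and 2 and at 31.0, 37.5 and 31.1 CPM in WT replicates 1, 2 and 3. Each value lay below every zona fasciculata-like value given above, and the fold was −0.67 ± 0.17 (SE, edgeR adjusted p = 0.000576). Sdha was at 96.4 ± 17.0 CPM and Sdhc at 32.0 ± 6.56 CPM in chromaffin-like nuclei, with folds of −0.01 ± 0.13 and 0.06 ± 0.16 that did not pass. Fh1 was at 14.5 ± 3.13 CPM and Sdhaf2 at 44.8 ± 11.4 CPM, with folds of 0.06 ± 0.22 and −0.07 ± 0.15 that did not pass. Sdhd, with 30 UMIs over the 5 libraries, was at 3.44 ± 1.42 CPM (−0.57 ± 0.31, edgeR adjusted p = 0.116). Tmem127 missed the threshold (−0.31 ± 0.15, edgeR adjusted p = 0.0797). Cluster 14, which passed 12 of 15 chromaffin markers but has leading genes of another list, held 34.0 ± 11.9 CPM of Tmem127, 35.8 ± 7.12 CPM of Sdhb and 88.5 ± 13.6 CPM of Sdha. Its Nf1 level of 441 ± 51.5 CPM was below the chromaffin-like level in 5 of 5 libraries, which was not tested.

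Several other calls depended on 1 library or on small sums. Endothelial-like Fh1 was above the mean of the other classes by 0.63 ± 0.24 (SE, edgeR adjusted p = 0.0248), and it did not pass in DESeq2 (DESeq2 adjusted p = 0.0964), in 4 other settings, or without KO replicate 1 or WT replicate 2 (edgeR adjusted p = 0.0619 and 0.101). Its level of 16.1 ± 7.06 CPM was near the 15.5 CPM of zona fasciculata-like and 15.4 CPM of zona glomerulosa-like nuclei. The mean of the other classes takes in T or NK cell-like and Schwann or sustentacular-like nuclei, with 2 UMIs of Fh1 each. Macrophage-like Sdhb, at 58.2 ± 24.6 CPM, was higher by 0.43 ± 0.18 (SE, edgeR adjusted p = 0.0398), and it was lost without WT replicate 1, 2 or 3 (edgeR adjusted p = 0.193, 0.276 and 0.139), with coarser clusters, with doublets kept, without the filter on low counts and with at least 1000 UMIs (edgeR adjusted p from 0.0580 to 0.205). Macrophage-like Sdhaf2, at 61.5 ± 20.8 CPM, was higher by 0.44 ± 0.16 (SE, edgeR adjusted p = 0.0236), and it was lost without KO replicate 1 or WT replicate 1, 2 or 3 (edgeR adjusted p = 0.0886, 0.0628, 0.121 and 0.168), with doublets kept and without the filter (edgeR adjusted p = 0.102 and 0.171). In capsule or fibroblast-like nuclei Sdhb was lower by −0.53 ± 0.16 (SE, edgeR adjusted p = 0.00514) and Sdhaf2 by −0.50 ± 0.15 (SE, edgeR adjusted p = 0.00494). The first call was lost without WT replicate 1 (edgeR adjusted p = 0.0810) and the second without KO replicate 1 (edgeR adjusted p = 0.0926).

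In the 2 smallest classes the calls on sparse genes were the least stable. T or NK cell-like Fh1, with 2 UMIs, so that its fitted fold rests on the prior count, had a fold of −2.32 ± 0.80 (SE, edgeR adjusted p = 0.0224) and was lost without KO replicate 1 or WT replicate 3 (edgeR adjusted p = 0.0503 and 0.121), in DESeq2 (DESeq2 adjusted p = 0.0546) and without a composition factor (edgeR adjusted p = 0.0628). T or NK cell-like Sdha, with 57 UMIs, had a fold of −0.50 ± 0.20 (SE, edgeR adjusted p = 0.0480) and was lost without WT replicate 1, 2 or 3 (edgeR adjusted p = 0.0978, 0.132 and 0.268). It was also lost in DESeq2 (DESeq2 adjusted p = 0.126), with DESeq2's size factors, with at least 1000 UMIs, and without a composition factor, where the fold was −0.15 (edgeR adjusted p = 0.660). In Schwann or sustentacular-like nuclei Max (21 UMIs), Sdhaf2 (17), Sdha (46) and Fh1 (2) were lower, by −0.79 ± 0.30, −0.86 ± 0.32, −0.63 ± 0.21 and −2.13 ± 0.81. They were called in 4, 4, 7 and 6 of 14 alternatives. Max was lost without KO replicate 2 or WT replicate 1, 2 or 3 (edgeR adjusted p = 0.0906, 0.216, 0.0928 and 0.208). Sdhaf2 was lost without KO replicate 1, KO replicate 2 or WT replicate 2 (edgeR adjusted p = 0.239, 0.0757 and 0.176). Sdha was lost without WT replicate 1 or 3 (edgeR adjusted p = 0.212 and 0.122). Fh1 was lost without KO replicate 1, WT replicate 1, KO replicate 2 or WT replicate 2 (edgeR adjusted p = 0.120, 1.00, 0.0671 and 0.0715).

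Between genotypes, none of the 10 genes passed in any class, cluster or alternative run. Over all nuclei 0 of 10 passed with edgeR, 0 had an unadjusted p under 0.05 and 0 passed with DESeq2. In that fit edgeR called 0% of 16585 genes (1150 at an unadjusted p under 0.05), and DESeq2 called 57. In sums over all nuclei, fewer nuclei of a type and less RNA per nucleus cannot be told apart. Tmem127, the targeted gene, was counted at 45.9 and 45.2 CPM in KO replicates 1 and 2 and at 38.0, 38.1 and 36.2 CPM in WT replicates 1, 2 and 3. Both KO libraries lay above all 3 WT libraries, as in 13.2% of all genes tested, and they did so within each annotation version, which separates replicate 1 of both genotypes from the rest. The fold was 0.23 ± 0.14 (SE, edgeR adjusted p = 0.754). Because the reads are 3' tags and the deleted part is not given, these values do not check the genotype labels.

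In chromaffin-like nuclei Tmem127 was counted at 35.0 and 45.9 CPM in KO replicates 1 and 2 and at 27.0, 24.1 and 24.8 CPM in WT replicates 1, 2 and 3. KO lay above WT without overlap, as in 12.8% of all genes tested there, and the fold of 0.60 ± 0.28 (SE, edgeR adjusted p = 0.904) did not pass. None of the 10428 genes passed there with edgeR (0%, 544 at an unadjusted p under 0.05), and 13 did with DESeq2. The library without a group was at 20.8 CPM. Both KO values of Tmem127 were also above the WT values in zona fasciculata-like (0.26 ± 0.24), zona glomerulosa-like (0.21 ± 0.18) and capsule or fibroblast-like nuclei (0.40 ± 0.25), where 10.7%, 13.8% and 10.3% of all genes tested lay so. The same held in clusters 6 (0.37 ± 0.33) and 14 (0.74 ± 0.43), with 11.6% and 9.16% of all genes, and in T or NK cell-like nuclei and cluster 15, where Tmem127 was too sparse to be tested (11.1% and 8.16%). The groups overlapped in adipocyte-like (−0.24 ± 0.61), endothelial-like (−0.16 ± 0.27) and macrophage-like nuclei (0.27 ± 0.39), in cluster 12 (0.29 ± 0.76) and in Schwann or sustentacular-like nuclei. The difference between the KO folds of chromaffin-like and zona fasciculata-like nuclei (first minus second) was 0.28 ± 0.29 for Tmem127 (edgeR adjusted p = 1.00). No member passed that test of the difference, nor did any of 12033 genes with edgeR or DESeq2 (0%, 419 at an unadjusted p under 0.05 with edgeR).

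**Figure D4:**
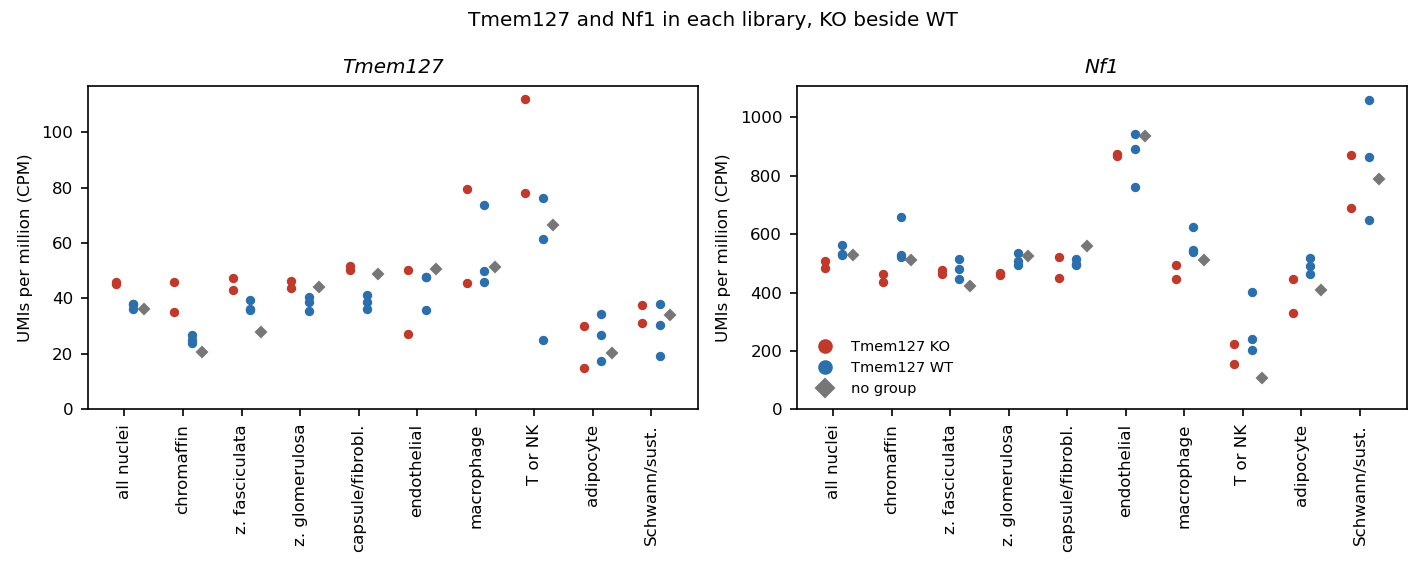
Tmem127 and Nf1 levels (y axis, CPM) over all nuclei and by class (x axis), with 1 point per library coloured by genotype. Over all nuclei both KO libraries lie above the 3 WT libraries for Tmem127 and below them for Nf1.

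Nf1 over all nuclei was at 485 and 509 CPM in KO, and at 564, 529 and 531 CPM in WT. KO lay below WT without overlap, as in 5.95% of all genes tested, and the fold of −0.18 ± 0.11 (SE, edgeR adjusted p = 0.754) did not pass. In chromaffin-like nuclei it was at 437 and 463 CPM in KO, and at 529, 659 and 521 CPM in WT, again without overlap, as in 8.1% of all genes, and without passing (−0.34 ± 0.18, edgeR adjusted p = 0.904). KO was below WT without overlap in zona glomerulosa-like (−0.17 ± 0.12), macrophage-like (−0.23 ± 0.21) and adipocyte-like nuclei (−0.34 ± 0.29), where 10.8%, 11.5% and 13.4% of all genes lay so. It was also below in clusters 12 (−0.30 ± 0.26) and 14 (−0.26 ± 0.19), with 10% and 10.7% of all genes. The zona glomerulosa fit called 0.419% of all genes and 0 members. The groups overlapped for Nf1 in endothelial-like (−0.03 ± 0.16), zona fasciculata-like (−0.07 ± 0.20), capsule or fibroblast-like (−0.07 ± 0.16), T or NK cell-like (−0.51 ± 0.44) and Schwann or sustentacular-like nuclei (−0.03 ± 0.34) and in cluster 6 (−0.17 ± 0.24). In cluster 15 KO lay above WT (0.32 ± 0.28), as in 8.16% of all genes tested there.

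Vhl over all nuclei was at 12.7 and 21.7 CPM in KO, and at 10.7, 14.7 and 12.6 CPM in WT, and its fold was 0.43 ± 0.21 (SE, edgeR adjusted p = 0.725). KO replicate 2, the shallowest library, was the high value, and the groups overlapped. In chromaffin-like nuclei Vhl was at 6.90 and 18.4 CPM in KO, and at 12.98, 16.1 and 8.70 CPM in WT, with overlap (−0.18 ± 0.52). In zona fasciculata-like nuclei both KO values of Vhl lay above the WT values, at 16.6 and 29.2 CPM in KO, and at 13.1, 12.8 and 13.9 CPM in WT. Of all genes tested there 10.7% lay so, and the fold did not pass (0.71 ± 0.33, edgeR adjusted p = 0.997). Max over all nuclei was at 60.5 and 46.3 CPM in KO, and at 48.1, 49.4 and 60.8 CPM in WT, with overlap (−0.04 ± 0.19). In chromaffin-like nuclei it was at 40.2 and 23.9 CPM in KO, and at 42.9, 38.8 and 44.7 CPM in WT (−0.41 ± 0.28). KO replicate 2, with 13 UMIs, was the low value there.

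The complex II genes overlapped between genotypes over all nuclei. Sdha was at 107 and 104 CPM in KO, and at 121, 95.7 and 122 CPM in WT (−0.17 ± 0.15). Sdhb was at 51.2 and 43.5 CPM in KO, and at 45.9, 52.6 and 39.8 CPM in WT (−0.02 ± 0.18). Sdhc was at 40.5 and 34.6 CPM in KO, and at 43.9, 38.8 and 38.8 CPM in WT (−0.20 ± 0.15). No library was the highest or the lowest for all 3. Sdhd was at 5.11 and 6.52 CPM in KO, and at 6.53, 4.22 and 5.02 CPM in WT (0.02 ± 0.32), with overlap. Sdhaf2 was lower in KO without overlap, as 5.95% of all genes tested were, at 44.4 and 43.7 CPM in KO, and at 44.9, 57.5 and 53.8 CPM in WT. KO replicate 1 and WT replicate 1 were nearly level, and the fold did not pass (−0.25 ± 0.15, edgeR adjusted p = 0.747). Fh1 was also among these 5.95% of genes lower in KO without overlap, at 14.8 and 15.2 CPM in KO, and at 16.3, 16.6 and 18.9 CPM in WT. It did not pass (−0.24 ± 0.20, edgeR adjusted p = 0.780). In chromaffin-like nuclei the folds of this set ran from −0.33 ± 0.41 for Fh1 to 0.15 ± 0.29 for Sdhb, and Sdhd did not reach the count minimum.

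In zona fasciculata-like nuclei Fh1 was at 10.1 and 12.1 CPM in KO, and at 15.3, 16.9 and 23.2 CPM in WT. KO lay below WT without overlap, as in 6.04% of all genes, and the fold of −0.70 ± 0.35 (SE, edgeR adjusted p = 0.997) did not pass, as none of 12392 genes did with edgeR (0%, 347 at an unadjusted p under 0.05) and 4 did with DESeq2. The library without a group was above all 5 there, at 26.4 CPM. Sdhaf2 in these nuclei was at 44.6 and 38.3 CPM in KO, and at 48.0, 64.1 and 59.0 CPM in WT, also without overlap and without passing (−0.42 ± 0.24, edgeR adjusted p = 0.997). Endothelial-like Fh1 was lower in both KO libraries too, as 7.61% of all genes were, and did not pass (−0.87 ± 0.43, edgeR adjusted p = 1.000). Cluster 14 went the other way, with KO above WT without overlap, as in 9.16% of all genes tested there. Fh1 was there at 21.6 and 19.97 CPM in KO, and at 12.15, 4.49 and 12 CPM in WT. KO replicate 2 held 3 UMIs of it and WT replicate 2 held 1. The groups overlapped for Fh1 in capsule or fibroblast-like and macrophage-like nuclei. In cluster 6 Sdha was at 115 and 66.2 CPM in KO, and at 145, 131 and 126 CPM in WT, and it was the 1 member with an unadjusted p under 0.05 in these comparisons (−0.63 ± 0.28, edgeR adjusted p = 1.000). KO lay below WT without overlap, as in 7.27% of all genes, and KO replicate 2, with 15 UMIs, was the lowest library. Members called were 0 in every remaining fit, where the share of all genes called was 0.019% in endothelial-like, 0.0297% in capsule or fibroblast-like, 0.0696% in macrophage-like, 0.283% in adipocyte-like and 0.933% in T or NK cell-like nuclei. That share was 0% in Schwann or sustentacular-like nuclei and clusters 6 and 12, 0.0173% in cluster 14 and 0.218% in cluster 15. Low counts removed members from most of these fits, and Nf1 alone could be tested in Schwann or sustentacular-like nuclei.

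**Figure D5:**
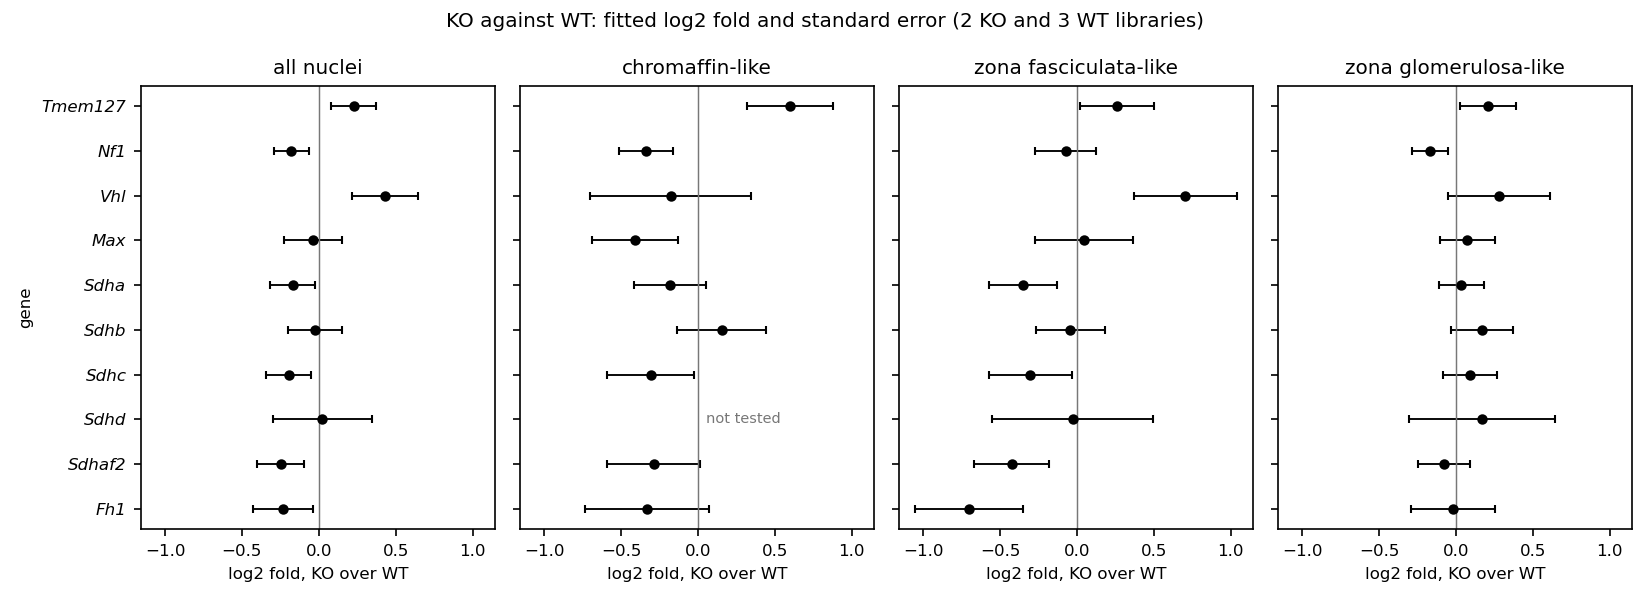
Fitted log2 fold of KO over WT with its standard error (x axis) for the 10 genes (y axis) over all nuclei and in 3 classes, from 2 KO and 3 WT libraries. None passed the test, and over all nuclei the folds run from −0.25 for Sdhaf2 to 0.43 for Vhl.

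The pathway partners of the members were taken from 6 lists. In chromaffin-like nuclei against the other classes, 9 of 22 measured mTORC1 and lysosomal RAG genes were higher and 1 was lower, with a median fold of 0.25 against 0.00 for all genes. The share of all genes that passed there was 29.4% higher and 22.8% lower (24% and 31.3% without the composition factor). Rragb and Rragd, GTPases that bring mTORC1 to the lysosome, were higher by 3.75 ± 0.14 and 3.67 ± 0.26, Fnip1, a folliculin partner, was higher by 0.88 ± 0.09, and the ubiquitin ligase Wwp1 was lower by −0.97 ± 0.12. Of 18 measured RAS genes and regulators, 7 were higher and 6 lower, with a median of −0.09. Rasal2, a RAS GTPase-activating protein like Nf1, was higher by 1.25 ± 0.11, while Spred1, which brings Nf1 to the membrane, was lower by −2.13 ± 0.13 and Rasa3 by −1.32 ± 0.16. Of 13 VHL ligase and HIF hydroxylation genes, 1 was higher and 3 were lower, with a median of −0.13. Hif3a was higher by 3.24 ± 0.31, and the prolyl hydroxylase Egln3, Epas1 (HIF2 alpha) and Hif1a were lower by −5.66 ± 1.28, −0.57 ± 0.22 and −0.45 ± 0.15. In the MYC, MAX and MLX network 1 of 9 was higher (Mga, 0.33 ± 0.09) and 2 were lower (Mlxipl, −1.42 ± 0.25, and Mlxip, −0.88 ± 0.13), with a median of −0.14. Among 19 TCA cycle and complex II assembly genes 0 were higher and 3 lower, with a median of −0.21: Suclg2 by −1.20 ± 0.12, Pcx by −1.14 ± 0.16 and Sdhaf3 by −0.45 ± 0.15. Of the rarer susceptibility genes 1 of 20 was higher and 8 were lower, with a median of −0.29, and the largest folds were those of Mertk (−4.80 ± 0.32), Idh1 (−1.43 ± 0.19), Suclg2 and Trp53 (−0.94 ± 0.17). Between KO and WT no gene of any list passed in any class with edgeR.

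In adipocyte-like nuclei 18 of the 19 measured TCA genes were higher and 1, Idh2, was lower (−0.89 ± 0.29), with a median of 1.79 against −0.11 for all genes, of which 24.9% were higher and 24.3% lower. Pyruvate carboxylase Pcx (4.29 ± 0.11), Idh3a (3.88 ± 0.15) and Dlat (3.32 ± 0.10) were named after their values were seen, and each fold exceeded that of Sdhd. Of the VHL and HIF list 5 of 13 were higher and 0 lower, with a median of 0.48, and Egln3 (4.67 ± 0.41) and Epas1 (2.37 ± 0.19) had the largest folds of it.

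The genes with the most similar class profile were sought among 7424 genes of at least 20 CPM, by Pearson's correlation of log2(CPM + 1) class means. This is a description over 9 points that share libraries and depth. Sdha was most like Pck1 (r = 0.973), Cfd and Cidec, and Sdhc most like Ppargc1a (r = 0.940), Gabpa and Slc25a42. Sdhb was most like Slc7a6os (r = 0.986), Pex16 and Atp5l, and Sdhaf2 most like Msra (r = 0.960), Rbm4 and Eif5b. Sdhd and Fh1 were both most like Alkbh3 (r = 0.970 and 0.972), followed by Sumf2 and Nup188 for Sdhd and by Zdhhc5 and Usp14 for Fh1. Nf1 was most like Snx19 (r = 0.951), Slc39a10 and Kif13a, and Vhl most like Rnf6 (r = 0.955), Med6 and Dnajc8. Max was most like Adcy7 (r = 0.961), Rplp1 and Rpsa, and Tmem127 most like Rps28 (r = 0.969), Otud5 and Atm. Among the members, Sdha and Sdhc had r = 0.873 over the 9 classes and 0.346 over the 8 without adipocyte-like nuclei. Sdhb and Sdhc had 0.421 and −0.553, and Sdhd and Fh1 had 0.933 and 0.919, with classes of 1 or 2 UMIs of these genes among the points.

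By their length on the mm10 build, Nf1 is the longest member, with 241920 bases (chr11:79339693-79581612 on the plus strand), and Sdhd the shortest, with 7456 bases (chr9:50596357-50603812 on the minus strand). Some counts are less certain because genes overlap on opposite strands and the counting rule is not stated. Sdhaf2 overlaps Cpsf7 by 877 bases, and Cpsf7 had a mean of 113 CPM over all nuclei. Fh1 overlaps Kmo (2.24 CPM), and Nf1 overlaps AU040972, Evi2, Evi2a, Evi2b and Omg, none above 0.983 CPM.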

How the data were processed

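The authors deposited UMI counts for each gene in each barcode, obtained with Cell Ranger (4.0.0 for replicate 1 of both genotypes, 3.1.0 for the other libraries), per the file headers and the submitters' processing notes, on mm10. The sources used here do not give the handling of intronic reads. The lowest barcode held 500 UMIs, so barcodes had been filtered before deposit. Nuclei with at least 300 genes and under 5% mitochondrial UMIs were kept (48 failed), and the 641 barcodes with the highest scrublet doublet scores were removed. The 30406 genes of both annotations were used. Clustering used 2000 variable genes without the members, 30 principal components, Harmony over libraries, 20 neighbours and Leiden at resolution 0.8 (scanpy 1.11.5), giving 23 clusters. A class was tested where each grouped library had at least 20 nuclei. UMIs were summed per library and class and tested with edgeR 4.0.16 (TMM, filterByExpr, quasi-likelihood), with annotation version as a term between genotypes and library as a block between classes, and p-values were adjusted over all genes. The fit was tested on simulated data. DESeq2 1.42.0 and the other alternatives are given in the closing section. A ± in CPM is the SD over the 5 grouped libraries and not a counting-error interval, and a ± on a fold is its standard error. The members and the gene lists were chosen with earlier results of these data known. The named genes are the 10 members, the 3 genes most like each and, per list, at most 4 that passed in chromaffin-like nuclei; some list genes are not reported here.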

Additional observations from a re-analysis of the deposited data

How the results depend on the processing

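Of 19 results between genotypes and 35 between classes, 12 and 17 kept their direction and side of the threshold in every alternative run, and no class fold reversed. Against zona fasciculata-like nuclei, 1 member was called in chromaffin-like nuclei, which became 2 with DESeq2, with DESeq2's size factors in edgeR, with doublets kept and with the library without a group included, and 3 without a composition factor, and lay between 1 and 2 when libraries were left out. The 32 class calls lay between 23 and 31 without 1 library, and the 2 zona glomerulosa calls between 2 and 3. Using no composition factor was chosen after seeing the data, and it moved the median of all genes from 0.00 to −0.17 in chromaffin-like nuclei. The following folds between genotypes, none called, changed sign. Over all nuclei, Sdhb was 0.030 without a composition factor and 0.082 with the sixth library counted as WT, and it ran from −0.13 to 0.092 when libraries were left out. Sdhd was −0.0105 without the filter, −0.080 with at least 1000 UMIs and −0.0005 with doublets kept, and ran from −0.43 to 0.45 when libraries were left out. Max was 0.018 without a composition factor and ran from −0.30 to 0.25. In chromaffin-like nuclei Sdhb ran from −0.23 to 0.40, Vhl from −0.96 to 0.64 and Sdhaf2 from −0.95 to 0.18 when libraries were left out, and Sdha was 0.0003 with the sixth library counted as KO. The cause was not tested. No paired analysis was possible because the labels carry no replicate numbers, and the numbers used here only name libraries in accession order. Depth limits Vhl, Sdhd and Fh1 most, and 2 KO libraries leave wide errors.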
